A study of Mus musculus with 9 samples.

Results

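The 102 genes described here are the nuclear genes of the mitochondrial respiratory chain, measured as messenger RNA in the spinal cord of mice with experimental autoimmune encephalomyelitis. They were chosen by name: a RefSeq symbol of a protein-coding nuclear gene beginning with Nduf, Sdh, Uqcr or Atp5, or with Cox and a digit. The pattern caught 129 symbols, of which 109 were protein coding and 108 stood in the table of 27179 gene records. At least 10 counts in at least 3 of the 9 libraries were found for 102 of them, and these are called members. The rule uses names and counts and no difference between groups, but it was set with earlier results of these data known. The pattern catches more than subunits: 81 members are subunits, tissue isoforms or close relatives of subunits, and 21 are assembly factors. All 102 also passed the filter on low counts of the test, which ran over 16749 genes.

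Each of 9 C57BL/6 mice gave 1 library of poly(A) RNA from the spinal cord, in 3 groups of 3 mice. The EAE+EHP-101 mice had EAE and received EHP-101 by mouth at 20 mg/kg, the EAE mice had the disease model alone, and the Control mice are labelled as controls and nothing further. In EAE the immune system is raised against myelin, which gives a mouse model of multiple sclerosis. EHP-101 is a code name for an oral preparation known to act on PPAR gamma, a nuclear receptor, and on Cnr2, a cannabinoid receptor. The sources used here give no age, day of sampling, length of dosing or sham injection. The design asks which transcripts differ in the disease model and which of those differ when the compound is given.

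The respiratory chain passes electrons from NADH and succinate to oxygen through complexes I, II, III and IV, and the proton gradient this builds drives ATP synthase, complex V. Most subunits are encoded in the nucleus and imported, while a small set is encoded in mitochondrial DNA, so that each complex except complex II needs both genomes. Neurons and their long axons in the spinal cord depend on this supply of ATP, and loss of complex IV activity in axons and neurons is a known feature of multiple sclerosis lesions. PPAR gamma and its coactivators are known regulators of mitochondrial genes in fat and muscle.

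Libraries held 30448507 to 32661741 counts. Members took 1.265%, 1.3% and 1.267% of the counts in EAE+EHP-101 libraries and 1.284%, 1.293% and 1.289% in EAE libraries, against 1.135%, 1.061% and 1.164% in Control libraries. Markers of the labelled tissue were present: 8 neuronal markers summed to between 7961 and 8539 CPM (counts scaled to library size and TMM factors) in EAE+EHP-101, 7460 and 8598 in EAE, and 7531 and 9436 in Control. Markers of monocytes and macrophages, 7 of 7 higher in EAE than in Control and 7 of 7 lower in EAE+EHP-101 than in EAE, summed to 41.55 to 116 CPM in EAE+EHP-101, 598 to 874 in EAE and 19.2 to 22.15 in Control, with no marker at 0 in any group. Other cell types also differed between EAE and Control, where 20.2% of all genes tested were higher and 16.7% lower. In EAE 6 of 6 T cell markers, 4 of 6 microglial and 3 of 6 astrocyte markers were higher. Lower were 6 of 6 endothelial markers, 3 of 8 of neurons and 5 of 9 of pericytes and smooth muscle, with 1 higher. Of 6 oligodendrocyte markers 1 was higher and 1 lower, and 2 of 2 erythroid markers tested were lower. Of 7 tested genes of caudal cord identity 2 were lower. All 8 of that list summed to 143.3 to 245.0 CPM in EAE+EHP-101, 139.1 to 207.4 in EAE and 217.3 to 246.4 in Control. Endothelial markers summed to 121.2 to 139 CPM in EAE+EHP-101, 61.0 to 108 CPM in EAE and 133.0 to 223 CPM in Control. Control replicate 1 stood apart in skeletal muscle genes: 9 markers other than Pvalb, which neurons express too, summed to 57.25 CPM there, against 9.08 to 11.3 CPM elsewhere. In tissue samples fewer cells of a type and less RNA per cell cannot be told apart. The share of these cell types, and of caudal cord identity, in the results below was not tested.

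In EAE against Control, 66 of 102 members were higher and 0 were lower at an adjusted p under 0.05 (edgeR quasi-likelihood test, Benjamini-Hochberg over all 16749 genes), where 20.2% of all genes tested were higher and 16.7% lower. The median log2 fold change of the members was 0.25, a fold of 1.19, against 0.01 over all genes, but it was -0.015 once a trend with gene length was removed, as described further on. At an unadjusted p under 0.05, 75 members were higher and 2 lower. All 3 EAE libraries lay above all 3 Control libraries for 72 members and below them for 3, where 25.6% and 21.1% of all genes did so. The differences were small for most members: apart from Cox6a2 and Cox6b2, the largest difference that passed was that of Atp5e, 1.53-fold higher. Without the length trend 7 of the 66 still passed, Atp5e, Cox6a2, Cox6b2, Cox7a2l, Ndufa11, Ndufa13 and Ndufv3, and the others of the 66 did not. The count of 66 became 31 without Control replicate 2 and 34 without EAE replicate 2, and it was 45 without Control replicate 1; 31 members kept their call whichever library was left out.

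**Figure D1:**
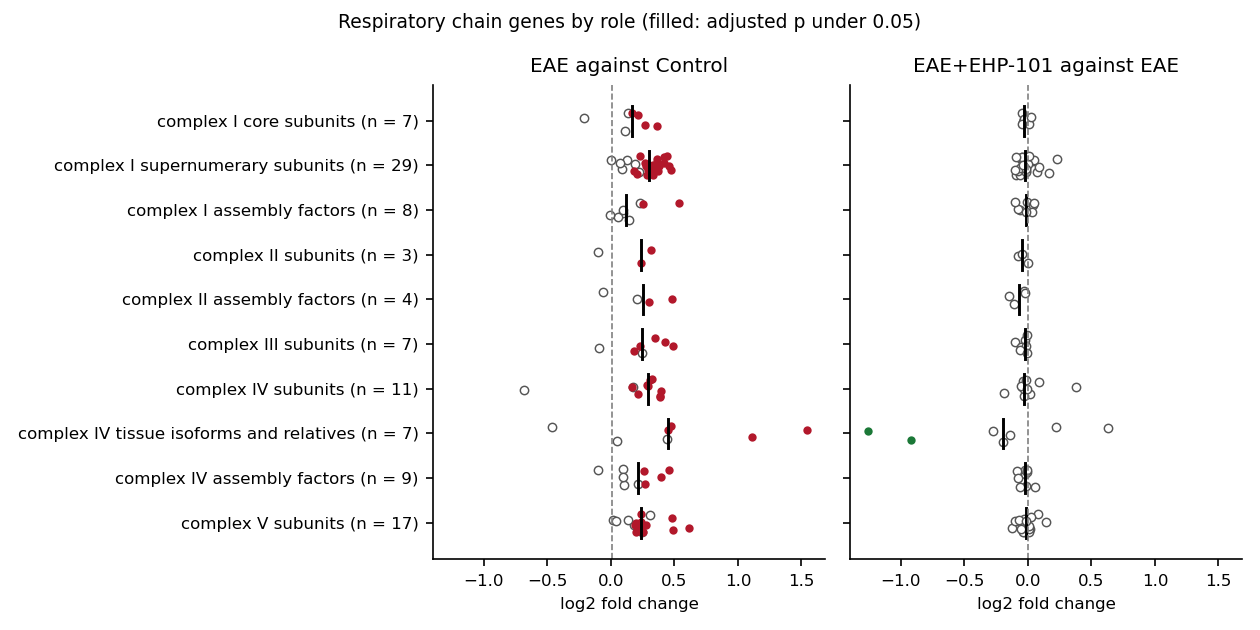
Log2 fold change (horizontal axis) of each of the 102 members by role (rows), for EAE against Control on the left and EAE+EHP-101 against EAE on the right. Filled points passed an adjusted p of 0.05, black bars are role medians and the dashed line is the median of all genes tested; 66 members are filled on the left, of which 7 also pass and 27 lie below 0 without the length trend, and 2 on the right, Cox6a2 and Cox6b2.

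Complex I takes electrons from NADH. Of its 7 core subunits, which carry the redox centres, 4 were higher in EAE, among them Ndufs3, Ndufs7 and Ndufs8, with a median log2 fold change of 0.16 (-0.001 without the length trend). Ndufs7, an iron-sulfur subunit beside the quinone site, had 90.3, 95.7 and 90.1 CPM in EAE+EHP-101, 88.6, 90.7 and 94.9 CPM in EAE, and 71.2, 71.4 and 70.96 CPM in Control. No library of either EAE group overlapped Control, and Ndufs7 was 1.28-fold higher in EAE than in Control (log2 0.36, SE 0.05, adjusted p = 0.000475). Without the length trend its log2 difference was 0.07 (adjusted p = 0.463). Ndufs8, another iron-sulfur subunit, was 1.21-fold higher (adjusted p = 0.00442), and at 0.03 on the log2 scale without the length trend (adjusted p = 0.673). Ndufs3, a core subunit of the peripheral arm, was 1.158-fold higher (adjusted p = 0.0261) but at -0.03 on the log2 scale without the length trend. Ndufs1, the large iron-sulfur subunit at the NADH end, went the other way, with 189, 177 and 170.1 CPM in EAE+EHP-101, 178, 173 and 199 CPM in EAE, and 211, 195 and 232 CPM in Control. Its EAE and Control libraries overlapped, its log2 difference in EAE was -0.21 (SE 0.08, adjusted p = 0.0544), and 8.47% of its exon bases lie opposite the record Ino80dos.

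The supernumerary subunits surround that core, and 23 of 29 were higher in EAE, with a median log2 fold change of 0.30 and none below 0, against 3 higher, a median of -0.025 and 12 above 0 without the length trend. Ndufb7, a subunit of the membrane arm, had 78.7, 83.1 and 76.6 CPM in EAE+EHP-101, 79.3, 82.7 and 78.8 CPM in EAE, and 59.6, 57.6 and 62.8 CPM in Control. Its EAE+EHP-101 and EAE libraries were interleaved and lay above every Control library, a 1.34-fold difference between EAE and Control (log2 0.42, SE 0.06, adjusted p = 0.000313). Ndufc1 (1.37-fold) and Ndufa2 (1.385-fold), both small subunits, showed the same order. Ndufa2 was at 0.10 on the log2 scale without the length trend (adjusted p = 0.149). Ndufa11, at the membrane arm's interface with the other complexes, had 80.8, 86.3 and 82.3 CPM in EAE+EHP-101, 84.3, 84.9 and 84.4 CPM in EAE, and 64.9, 60.2 and 70.2 CPM in Control, 1.299-fold higher in EAE (log2 0.38, SE 0.06, adjusted p = 0.000979). Ndufa13, another membrane-arm subunit, had 131.4, 145 and 139.5 CPM in EAE+EHP-101, 139, 147 and 143 CPM in EAE, and 112.3, 100.2 and 122 CPM in Control, 1.28-fold higher in EAE (log2 0.36, SE 0.07, adjusted p = 0.00295). Of the 8 complex I assembly factors 2 were higher: Ndufaf8 by 1.45-fold (log2 0.54, SE 0.135, adjusted p = 0.00929), at 9.53, 12.4 and 9.25 CPM in EAE+EHP-101, 11.2, 11.9 and 10.35 CPM in EAE, and 8.05, 6.58 and 8.42 CPM in Control, and Ndufaf3 by 1.19-fold (adjusted p = 0.0104). Without the length trend Ndufaf8 was at 0.16 (adjusted p = 0.31) and Ndufaf3 at 0.035 (adjusted p = 0.693) on the log2 scale. Ndufaf2 had a log2 difference of 0.14 (adjusted p = 0.128), and of -0.175 (adjusted p = 0.0309) without the length trend.

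Complex II oxidises succinate and is the only complex with no mitochondrially encoded subunit. Its subunits did not all differ in one direction. Without the length trend 0 of the 3 measured subunits passed, at -0.10 to 0.10 on the log2 scale. Sdhb, the iron-sulfur subunit, averaged 144 ± 2.28 CPM in EAE+EHP-101, 152 ± 6.32 CPM in EAE and 122 ± 9.79 CPM in Control (SD, n = 3 each) and was 1.25-fold higher in EAE than in Control (log2 0.32, SE 0.07, adjusted p = 0.00332). Sdhc, a membrane anchor, was 1.18-fold higher (adjusted p = 0.009). Sdha, the flavoprotein that binds succinate and the longest of them at 2859 exon bases, had 656, 615 and 610 CPM in EAE+EHP-101, 609, 628 and 642 CPM in EAE, and 667, 642 and 703 CPM in Control. Every EAE library stood below the lowest Control library for Sdha, yet the log2 difference of -0.10 (SE 0.06) did not pass (adjusted p = 0.214). The other anchor, Sdhd, had 0 to 2 counts in a library and is no member. Of the 4 complex II assembly factors, Sdhaf1, needed for the iron-sulfur subunit, was 1.397-fold higher in EAE (log2 0.48, SE 0.09, adjusted p = 0.00229), and Sdhaf4 was 1.23-fold higher (adjusted p = 0.0309) but at -0.02 on the log2 scale without the length trend.

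Complex III passes electrons to cytochrome c, and 5 of its 7 measured subunits were higher in EAE, with a median log2 fold change of 0.25. Without the length trend 0 of 7 were higher, with a median of 0.01. Uqcrq, a small membrane subunit, had 94.4, 101.2 and 97.15 CPM in EAE+EHP-101, 100.9, 101.1 and 92.7 CPM in EAE, and 68.98, 64.0 and 76.7 CPM in Control. All 6 libraries with EAE exceeded all 3 Control libraries, with EAE 1.41-fold above Control (log2 0.49, SE 0.07, adjusted p = 0.000454). Uqcr10 was 1.35-fold and the core protein Uqcrc1 1.17-fold higher, and the hinge protein Uqcrh was 1.27-fold higher but at -0.01 on the log2 scale without the length trend. Uqcr11, with 0 or 1 count in every library, is no member.

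Complex IV reduces oxygen. Of its 11 widely expressed subunits 9 were higher in EAE, with a median log2 fold change of 0.295, and 0 of 11 were higher, with a median of -0.07, without the length trend. Cox4i1, the regulatory subunit and the member with the second highest level per length, had 531, 554 and 543 CPM in EAE+EHP-101, 527, 550.2 and 535 CPM in EAE, and 452, 412 and 423 CPM in Control. The 2 EAE groups were interleaved and lay above Control, with EAE 1.25-fold higher (log2 0.33, SE 0.06, adjusted p = 0.00119). Cox8a, another small subunit, was 1.31-fold higher (adjusted p = 0.000396) and Cox6c 1.31-fold (adjusted p = 0.003). Ndufa4, named for complex I and known as a subunit of complex IV, was 1.24-fold higher (adjusted p = 0.0117) and at -0.07 on the log2 scale without the length trend. Cox5b, which binds zinc, was 1.125-fold higher (log2 0.17, SE 0.06, adjusted p = 0.0445), but lower by -0.18 on the log2 scale (adjusted p = 0.0306) without the length trend, and its call was lost when any 1 of 8 libraries was left out. Among 9 assembly factors 4 were higher, led by the copper chaperone Cox17 at 1.38-fold (log2 0.46, SE 0.07, adjusted p = 0.000612) and by Cox14 at 1.32-fold; the others, Cox19 and Cox20, were 1.21-fold (adjusted p = 0.0201) and 1.198-fold higher (0.0333) but below 0 on the log2 scale without the length trend, at -0.02 and -0.14.

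Complex V makes ATP, and 11 of its 17 subunits were higher in EAE, with a median log2 fold change of 0.24, and 1 of 17 was higher, with a median of -0.05, without the length trend. Atp5e, the epsilon subunit of the central stalk, had 88.7, 97.99 and 88.9 CPM in EAE+EHP-101, 95.8, 107 and 88.3 CPM in EAE, and 64.5, 57.05 and 68.5 CPM in Control. No Control library reached a library of the EAE groups, and Atp5e was 1.53-fold higher in EAE than in Control (log2 0.62, SE 0.09, adjusted p = 0.000375). Atp5j2 and Atp5mpl, small membrane subunits, were 1.394-fold and 1.404-fold higher. Atp5o, of the peripheral stalk, was 1.18-fold higher (adjusted p = 0.0128) and Atp5k, subunit e and the shortest member, 1.19-fold (adjusted p = 0.0136), at -0.05 and -0.16 on the log2 scale without the length trend. Atp5b, the catalytic beta subunit and the most abundant member per length, had 1592, 1547 and 1550.0 CPM in EAE+EHP-101, 1543, 1531 and 1606 CPM in EAE, and 1558, 1447 and 1556 CPM in Control, with overlapping groups and a log2 difference of 0.04 (SE 0.06, adjusted p = 0.644). The 3 genes of the c subunit, which encode one mature protein, had unequal levels and similar differences: per kb of exon, Atp5g3 stood at 464 ± 26.2, Atp5g1 at 47.2 ± 1.09 and Atp5g2 at 14.8 ± 1.34 CPM in EAE, with log2 differences from Control of 0.195 (adjusted p = 0.0372), 0.20 (0.0388) and 0.31 (0.0653), each below 0 without the length trend (-0.12, -0.06 and -0.02).

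Summed by complex, subunits of complex I reached 3394 to 3486 CPM in EAE+EHP-101, 3428 to 3541 CPM in EAE and 2784 to 3181 CPM in Control. The ratio of the EAE mean to the Control mean was 1.17 for complex I, 1.01 for complex II, 1.15 for complex III, 1.23 for complex IV and 1.08 for complex V. EAE and Control libraries overlapped for complex II alone, at 883 to 925 CPM in EAE and 855 to 947 CPM in Control. Most of the complex II sum is Sdha, its longest measured subunit, and Sdhd is not in it. These sums are of counts as deposited and hold the length trend. Without it the median log2 differences were -0.001 for core and -0.025 for supernumerary subunits of complex I. They were 0.04 for complex II, 0.01 for complex III, -0.07 for widely expressed complex IV subunits and -0.05 for complex V. The ratio of the EAE+EHP-101 mean to the EAE mean lay between 0.976 (complex III) and 0.987 (complexes II and V) for all 5.

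Promoters of 3 members that the results turn on are printed here from RefSeq (build GRCm38.p6, 250 bases before to 50 after the start), 5′ to 3′ on the gene's strand. Cox6b2 is shown because it differed in both directions across the groups, Atp5e because its difference was the largest of the widely expressed subunits, and Ndufa11 because its difference remained in the fit without the length trend. Capitals mark matches to the 4 motifs searched on both strands: GCGCA and GCGC around any 1 base for NRF1, CCGGAAG for ETS factors such as GABP, AAGATGGCG for YY1 and AGGTCA given 2 times around any 1 base for PPAR receptors. The ETS and YY1 letters can share the bases AAG.
Cox6b2, chr7:4753045-4753344, minus strand: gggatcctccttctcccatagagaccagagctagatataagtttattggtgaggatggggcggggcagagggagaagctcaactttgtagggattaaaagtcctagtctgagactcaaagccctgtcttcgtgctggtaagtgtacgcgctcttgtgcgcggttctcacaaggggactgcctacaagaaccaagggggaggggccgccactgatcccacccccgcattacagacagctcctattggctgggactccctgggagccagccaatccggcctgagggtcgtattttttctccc
Atp5e, chr2:174464052-174464351, minus strand: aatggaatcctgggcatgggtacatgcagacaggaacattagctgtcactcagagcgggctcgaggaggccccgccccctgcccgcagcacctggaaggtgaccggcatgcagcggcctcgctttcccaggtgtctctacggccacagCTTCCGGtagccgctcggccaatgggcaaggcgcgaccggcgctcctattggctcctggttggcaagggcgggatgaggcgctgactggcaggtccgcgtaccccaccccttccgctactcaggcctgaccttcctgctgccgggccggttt
Ndufa11, chr17:56717512-56717811, plus strand: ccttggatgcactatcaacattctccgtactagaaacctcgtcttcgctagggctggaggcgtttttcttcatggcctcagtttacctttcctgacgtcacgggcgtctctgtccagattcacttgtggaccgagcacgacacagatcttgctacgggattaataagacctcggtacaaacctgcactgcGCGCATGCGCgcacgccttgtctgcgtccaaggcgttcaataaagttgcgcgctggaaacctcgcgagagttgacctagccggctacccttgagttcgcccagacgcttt
The capitals in Atp5e are the ETS motif read on the other strand, those in Ndufa11 are 1 NRF1 match that reads the same on both strands, and Cox6b2 had no match. Of 102 members 84 had a promoter in the table. The NRF1 motif stood in 23.8% of them against 9.85% of the genes tested that have a promoter there, the ETS motif in 29.8% against 17%, and the YY1 motif in 10.7% against 2.93%. The PPAR motif stood in 0 of 84 members and in 0.0393% of those genes, too rare for 0 of 84 to tell members from other genes. Members with the NRF1 motif (n = 20) had a median log2 difference between EAE and Control of 0.23 and those without (n = 64) of 0.27. For the ETS motif the medians were 0.26 with (n = 25) and 0.24 without (n = 59), and for the YY1 motif 0.36 with (n = 9) and 0.24 without (n = 75). Without the length trend the medians with and without were -0.06 and -0.01 for NRF1, -0.01 and -0.02 for ETS, and 0.07 and -0.02 for YY1. These are matches of letters and say nothing of binding.

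In EAE+EHP-101 against EAE, 0 members were higher and 2 were lower by edgeR, where 0.43% of all genes tested were higher, 4.81% lower and 5.24% either. The 2 were Cox6a2 and Cox6b2, also the only members at an unadjusted p under 0.05, and DESeq2 called the same numbers, 0 and 2. This comparison shares its EAE libraries with that of EAE against Control, so a gene's rise and fall are not independent. The other 64 members that were higher in EAE had log2 differences between EAE+EHP-101 and EAE of -0.195 to 0.09, with a median of -0.03, SEs of 0.05 to 0.15 and no adjusted p below 0.419. Over all 102 members the median log2 difference between EAE+EHP-101 and EAE was -0.03 with 29 above 0, and it was 0.02 with 65 above 0 without the length trend. All 3 EAE+EHP-101 libraries lay above all EAE libraries for 3 members and below them for 8, where 10.7% and 16.9% of all genes did so. The count of 2 became 0 without EAE replicate 2 and 1 without EAE replicate 3 or EAE+EHP-101 replicate 1 or 2.

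In EAE+EHP-101 against Control, 49 members were higher and 1 was lower, where 9.96% and 9.82% of all genes were. The median log2 fold change was 0.23, and 0.01 without the length trend. All 3 EAE+EHP-101 libraries lay above all Control libraries for 64 members and below them for 3, where 19.0% and 17.5% of all genes did so. This comparison shares its Control libraries with the one above, and 47 members were higher in both. The largest differences were again small subunits, such as Atp5e (1.45-fold, log2 0.54, SE 0.09, adjusted p = 0.00529), Atp5j2 (1.41-fold, adjusted p = 0.00619) and Uqcrq (1.396-fold, adjusted p = 0.00432). The lower member was Ndufs1 (log2 -0.25, SE 0.08, adjusted p = 0.0469), whose call was lost without any 1 of 5 libraries. The count of 49 became 13 without EAE+EHP-101 replicate 2, 20 without EAE+EHP-101 replicate 3 and 20 without Control replicate 2.

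The members are short genes, and the size of their difference followed their length. Their exons span 292 bases (Atp5k) to 4798 bases (Cox15) with a median of 708, against 2765 over all genes tested. Across the 102 members the log2 difference between EAE and Control ran with log2 exon length at Pearson's r -0.40 and Spearman's rho -0.56, and across all 16749 genes at -0.22 and -0.40; genes of a sample share its library, so these are descriptions. The 20 members under 500 bases had a median log2 difference of 0.42 and 218 other genes of that length 0.35. From 500 to 700 bases the medians were 0.29 (31 members) and 0.33 (379 other genes), and from 700 to 1000 bases 0.27 (17) and 0.25 (801). From 1000 to 1500 bases they were 0.20 (14) and 0.19 (1759), from 1500 to 2500 bases 0.15 (12) and 0.09 (4052), and at 2500 bases or more 0.08 (8) and -0.09 (9438). Members and other genes of like length thus had medians within 0.08 of each other in every class but the longest. The share called differed more: 18 of the 20 members under 500 bases were higher, against 30.3% of the other genes of that length. Without the length trend these were 1 of 20 and 7.8%. Those other genes spread widely, from -0.02 to 0.60 between the 25th and 75th percentiles. The median SE was 0.07 over all members and 0.10 over all genes tested. The part of such precision in the share called was not tested.

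**Figure D2:**
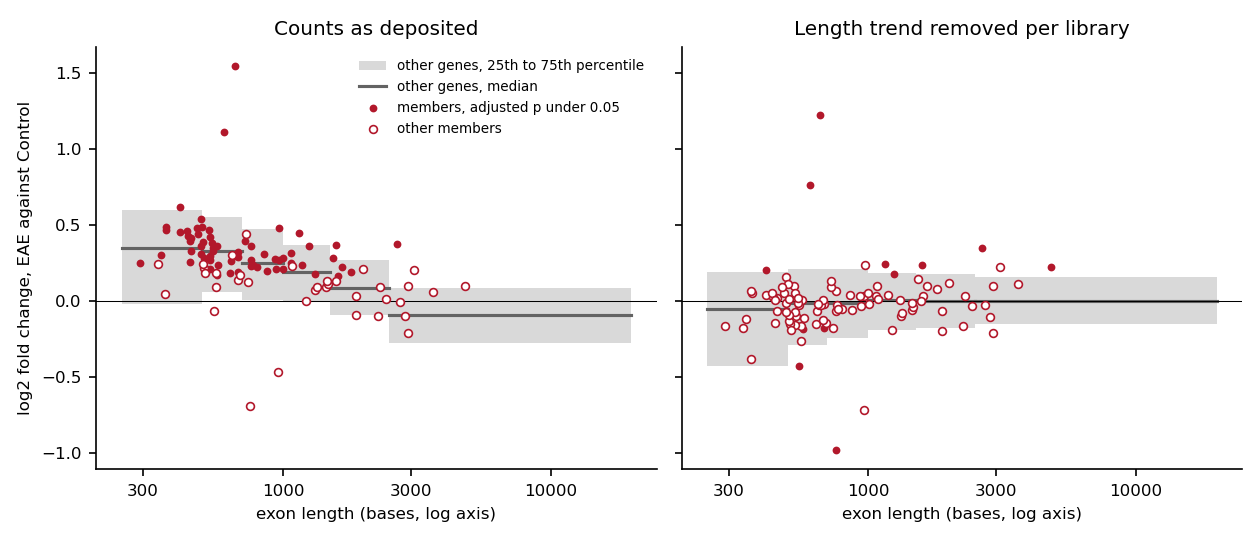
Log2 fold change of EAE against Control (vertical axis) by exon length (log axis, bases), with counts as deposited on the left and with the length trend of each library removed on the right. Red points are the 102 members (filled: adjusted p under 0.05), and grey lines and bands are the median and the 25th to 75th percentile of the other genes per length class. On the left the members follow the falling grey lines, and on the right 12 members are filled.

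The trend could be read in each library. For every gene the log2 CPM of a library minus the gene's mean over the 9 libraries was regressed on log2 exon length. Over all genes the slope per doubling of length was 0.005, -0.049 and -0.034 in EAE+EHP-101 libraries and -0.061, -0.090 and -0.049 in EAE libraries, against 0.084, 0.120 and 0.075 in Control libraries. Short transcripts were thus relatively more abundant in all EAE libraries and in 2 of 3 EAE+EHP-101 libraries, and less abundant in all Control libraries. The slope averaged -0.0666 ± 0.021 in EAE and 0.093 ± 0.0238 in Control (SD, n = 3 each), a difference of -0.16 (exact permutation test, 2-sided, p = 0.1, the smallest that 3 against 3 allows; 0.15 adjusted over 3 comparisons). It averaged -0.0264 ± 0.0278 in EAE+EHP-101, a difference of 0.04 from EAE (exact p = 0.2, adjusted 0.2) and of -0.12 from Control (exact p = 0.1, adjusted 0.15).

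The members' own level followed the slope library by library. Their median log2 deviation from the 9-library mean was 0.04, 0.105 and 0.05 in EAE+EHP-101 and 0.08, 0.13 and 0.07 in EAE, against -0.13, -0.27 and -0.09 in Control. After the trend of all genes at each member's length was subtracted it was 0.03, 0.00 and 0.01 in EAE+EHP-101 and -0.01, -0.03 and 0.01 in EAE, against 0.03, -0.04 and 0.01 in Control, so the 3 groups overlapped. Control replicate 2, the library with the steepest slope, also had the lowest members' level. Whether the trend arose in the tissue, in RNA quality or in library making cannot be told apart here, since it runs with the groups.

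**Figure D3:**
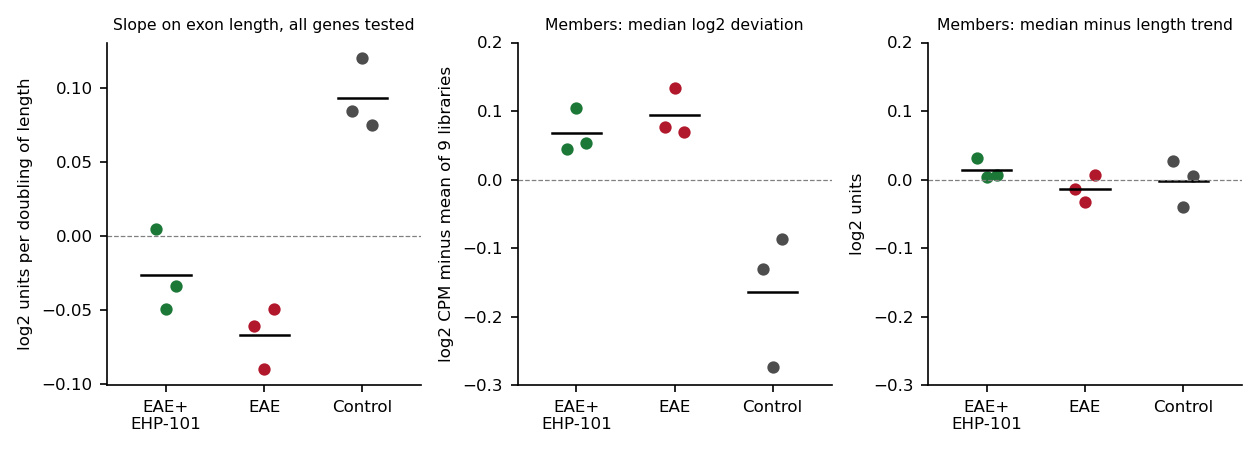
One point per library and a bar at the group mean: the slope of all genes on exon length (log2 units per doubling, left), the members' median log2 deviation from the mean of the 9 libraries (middle), and that median after the length trend was subtracted (right). EAE and Control libraries stand apart on the left and in the middle and overlap on the right, where all values lie between -0.04 and 0.03.

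With the trend of each library removed from the fit, 8 members were higher and 4 lower in EAE, where 15.2% of all genes were higher and 10.2% lower. Atp5e, Cox6a2, Cox6b2, Cox7a2l, Ndufa11, Ndufa13 and Ndufv3 were higher in both fits, and Cox15, the heme A synthase, in this fit alone (log2 0.23, adjusted p = 0.0212, against 0.10, adjusted p = 0.223, with the trend). Cox5b, Cox7a2, Ndufaf2 and Sdhaf3 were lower in this fit alone. With each library left out in turn, Cox6a2, Cox6b2 and Ndufa11 stayed higher and Sdhaf3 stayed lower. The 8 became 5 without Control replicate 1 or 2, 3 without EAE replicate 1 and 4 without EAE replicate 2. The 4 became 2 without Control replicate 1 or EAE replicate 1, 1 without EAE replicate 2 and 9 without Control replicate 3. In EAE+EHP-101 against EAE Cox6a2 and Cox6b2 were lower again (background 4.93%, and 5.3% for either direction) and 0 higher (0.376%), and against Control 4 were higher (Atp5e, Ndufa11, Ndufv3 and Uqcrq; background 4.54%) and Sdhaf3 was lower (4.72%). The 2 lower members became 0 without EAE replicate 2 or EAE+EHP-101 replicate 2 and 1 without EAE replicate 1 or 3 or EAE+EHP-101 replicate 1. The 4 higher than Control became 1 or 0 without Control replicate 1 or 2, EAE replicate 1 or any EAE+EHP-101 replicate, and 2 without EAE replicate 2.

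Length in the table is the union of a gene's exons, and it can differ from that of the transcripts made. Of 100 members with a protein-coding transcript in GENCODE M21, the table length exceeded the longest transcript by more than 1.5 times in 3, and the longest transcript exceeded the table length by more than 1.5 times in 21. Ndufa11 is the clearest case, with 2661 bases in the table and coding transcripts of 493, 545 and 918 bases. Its log2 difference of 0.38 stands above the median of -0.09 for other genes of at least 2500 bases and near the 0.33 of those of 500 to 700 bases. Ndufv3, a subunit of the NADH-oxidising module, has 1580 bases in the table and coding transcripts of 493 to 1582 bases; its log2 difference was 0.37 (SE 0.07, adjusted p = 0.00151), and 0.24 (adjusted p = 0.0139) without the trend. Sdhaf3, a complex II assembly factor, has 550 bases in the table and a transcript of 4323 bases in GENCODE. It had 10.6, 10.25 and 10.1 CPM in EAE+EHP-101, 9.66, 10.8 and 11.1 CPM in EAE, and 10.8, 11.1 and 11.04 CPM in Control, with EAE and Control overlapping, a log2 difference of -0.06 (adjusted p = 0.597), and -0.425 (adjusted p = 0.00784) in the fit without the trend at 550 bases.

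Complex IV has subunits that come as a widely expressed and a tissue isoform, and the tissue isoforms Cox6a2 and Cox6b2 had the largest differences of all members. Cox6a2 is known as the isoform of heart and skeletal muscle, and Cox6b2 as the isoform of testis. Cox6a2 was counted 12, 13 and 17 times in EAE+EHP-101, 31, 36 and 37 times in EAE, and 15, 9 and 10 times in Control. In CPM these are 0.384, 0.420 and 0.544 in EAE+EHP-101, 0.936, 1.15 and 1.15 in EAE, and 0.493, 0.285 and 0.328 in Control. Every EAE library stood above every library of the other groups, which overlapped each other. Cox6a2 was 2.92-fold higher in EAE than in Control (log2 1.545, SE 0.27, adjusted p = 0.00135) and 2.39-fold lower in EAE+EHP-101 than in EAE (log2 -1.26, SE 0.26, adjusted p = 0.0178). Against Control the EAE+EHP-101 difference was 0.29 (SE 0.31, adjusted p = 0.554).

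Cox6b2 was counted 71, 64 and 72 times in EAE+EHP-101, 130, 162 and 112 times in EAE, and 54, 61 and 65 times in Control, which is 2.27, 2.07 and 2.31 CPM in EAE+EHP-101, 3.93, 5.19 and 3.49 CPM in EAE, and 1.77, 1.93 and 2.13 CPM in Control. Its EAE libraries again stood apart from all others. The rise in EAE was 2.16-fold (log2 1.11, SE 0.175, adjusted p = 0.000699), and EAE+EHP-101 was 1.89-fold below EAE (log2 -0.92, SE 0.17, adjusted p = 0.00991). For both genes the rise and the fall rest on the same 3 EAE libraries. Both rises held with every library left out (highest adjusted p 0.00903 for Cox6a2 and 0.00493 for Cox6b2). The falls were less stable: that of Cox6b2 did not pass without EAE replicate 2 (adjusted p = 0.0521), and that of Cox6a2 did not pass without EAE replicate 2 or 3 or EAE+EHP-101 replicate 1 or 2 (0.0576 to 0.0911).

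**Figure D4:**
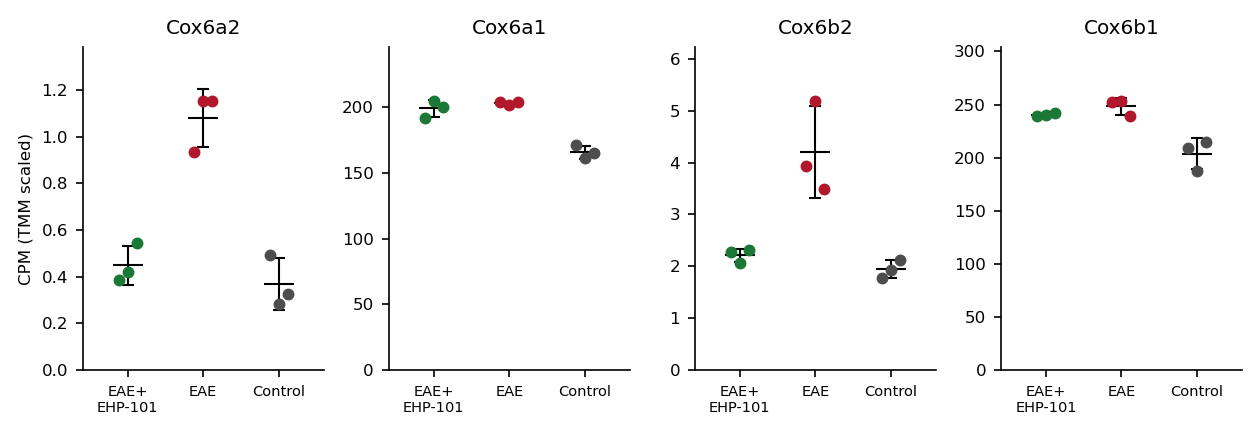
CPM, counts scaled to library size (vertical axis, from 0) of Cox6a2, Cox6a1, Cox6b2 and Cox6b1 in each library, with mean and SD of 3 mice per group. The EAE libraries of Cox6a2 (0.936 to 1.15 CPM) and Cox6b2 (3.49 to 5.19 CPM) lie above both other groups, while in Cox6a1 and Cox6b1 both EAE groups lie above Control, a difference that is below 0 without the length trend.

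The widely expressed partners did not show that pattern. Cox6a1 averaged 199 ± 6.5 CPM in EAE+EHP-101, 203 ± 1.09 CPM in EAE and 166 ± 5.12 CPM in Control (SD, n = 3 each), and Cox6b1 averaged 240.2 ± 1.23 CPM in EAE+EHP-101, 248 ± 8.25 CPM in EAE and 204 ± 14.5 CPM in Control. Both were higher in EAE than in Control (log2 0.295 for Cox6a1 and 0.29 for Cox6b1, adjusted p = 0.00141 and 0.00414) and below 0 without the length trend (-0.07 and -0.09). Per length, Cox6a2 made up 0.1615% to 0.219% of the pair Cox6a2 and Cox6a1 in EAE+EHP-101, 0.371% to 0.46% in EAE and 0.143% to 0.2325% in Control. Cox6b2 made up 0.716% to 0.792% of its pair in EAE+EHP-101, 1.21% to 1.68% in EAE and 0.704% to 0.855% in Control. Even in EAE these isoforms were thus minor transcripts of the cord.

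Other tissue isoforms were less changed. Cox7a1, the heart and muscle isoform of its subunit, was 1.39-fold higher in EAE than in Control (log2 0.47, SE 0.15, adjusted p = 0.0282). It had 4.48, 6.05 and 5.70 CPM in EAE+EHP-101, 5.56, 6.54 and 6.49 CPM in EAE, and 4.86, 3.80 and 4.75 CPM in Control. The call was lost without Control replicate 2, EAE replicate 2 or EAE replicate 3, and also without the length trend. Cox7a2l, which helps join complexes III and IV, was 1.36-fold higher (log2 0.45, SE 0.10, adjusted p = 0.00465), and 17.8% of its 50-base windows also occur in the record Gm6969. Cox4i2, Cox8b and Ndufa4l2, with log2 differences of 0.445, 0.045 and -0.47, did not pass (adjusted p = 0.245, 0.927 and 0.281). Without Pvalb the muscle markers summed to 9.41 to 11.1 CPM in EAE+EHP-101, 9.08 to 11.3 CPM in EAE and 9.59 to 57.25 CPM in Control. The highest sum was in Control replicate 1. Of all 10 muscle markers, Pvalb included, 6 passed the filter on low counts and 1 was higher in EAE than in Control. Markers of several other cell types were highest in EAE. Beside those of monocytes and macrophages, microglial markers summed to 434 to 605 CPM in EAE+EHP-101, 812 to 1087 CPM in EAE and 358 to 448 CPM in Control. T cell markers summed to 1.06 to 5.57 CPM in EAE+EHP-101, 9.89 to 11.7 CPM in EAE and 0.506 to 0.755 CPM in Control, and astrocyte markers to 6641 to 7121 CPM in EAE+EHP-101, 7753 to 9667 CPM in EAE and 5787 to 7293 CPM in Control. None of these markers was at 0 in every library of a group. The part of muscle and of these other cell types in the differences of Cox6a2 and Cox6b2 was not tested.

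Both genes lie on chromosome 7 (mm10), Cox6a2 at chr7:128205435-128206366 and Cox6b2 at chr7:4751794-4753094, both on the minus strand. Of the exon bases of Cox6a2, 10.6% overlap Itgad, an integrin gene of myeloid cells on the opposite strand. Itgad averaged 0.610 CPM in EAE+EHP-101, 0.6775 CPM in EAE and 0.421 CPM in Control and did not pass in EAE against Control (log2 0.68, adjusted p = 0.183) or in EAE+EHP-101 against EAE (-0.15, adjusted p = 0.882). Cox6b2 overlaps no other record, and its nearest neighbour that was tested, Kmt5c at 4280 bases, had log2 differences of 0.02 in EAE against Control and 0.19 in EAE+EHP-101 against EAE (adjusted p = 0.925 and 0.584).

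Levels of a few subunits were far below those of their complex. Tissue isoforms and relatives of complex IV are left out of this comparison. Per kb of exon, the 69 subunits with less than 45% of their exon bases opposite another record had 13.5 to 824 CPM (mean of 9 libraries, median 133). The cut at 45% was not set in advance, and Ndufa13, the next below it at 27.5%, had 104.7 CPM per kb. The 7 with at least 45%, Uqcr11 (95.4%), Sdhd (90.8%), Ndufa8 (80.2%), Ndufa6 (60.9%), Ndufa12 (55.1%), Atp5d (50.7%) and Cox7a2 (48.9%), had 0.00815 to 51.6 CPM per kb, with a median of 6.91. Sdhd, for one, is required for complex II, yet it had 0 to 2 counts in a library. No subunit overlapped a record on its own strand, and the opposite records of these 7 held 0 to 55 counts in a library. The level and the difference of these 7 genes in the table are therefore uncertain as measures of their transcripts: Cox7a2, with 24 to 49 counts in a library, had a log2 difference of -0.69 in EAE against Control (SE 0.26, adjusted p = 0.0544), unlike the other complex IV subunits. Low levels were not confined to overlapped genes. Among the isoforms and relatives left out, Cox6a2, Ndufa4l2, Cox8b, Cox4i2 and Cox6b2 had 0.96, 1.67, 1.875, 2.3 and 4.615 CPM per kb with little or no overlap. Cox7a1 and Cox7a2l, with no overlap, had 14.6 and 59.1 CPM per kb. The 6 candidates under the minimum count were Uqcr11, Sdhd, Cox7b2, Cox8c, Ndufb4b and Ndufb4c. Another limit is shared sequence: 21 members, Ndufa12 among them, share at least 20% of their 50-base windows with another annotated gene, so their level depends on how reads with several matches were counted; Cox20 (68.3%), Sdhaf1 (69%) and Atp5o (45.6%) are among them.

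**Figure D5:**
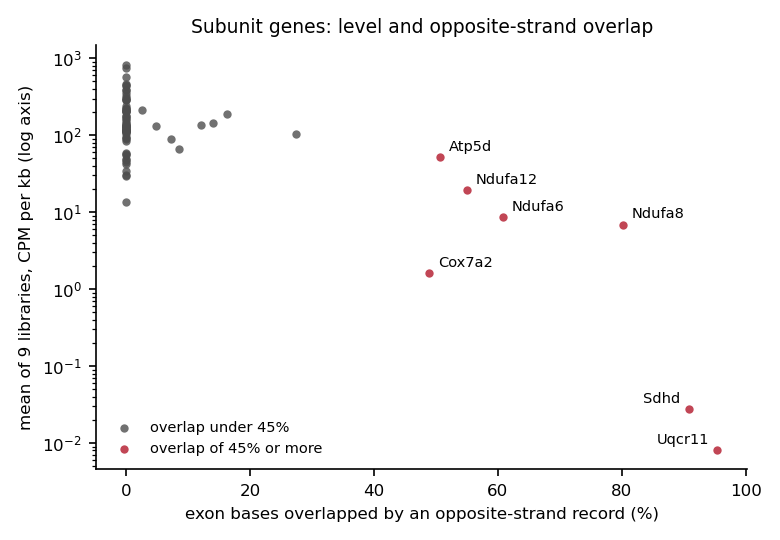
Level of each subunit gene (mean of 9 libraries, CPM per kb of exon, log axis) against the percentage of its exon bases that lie opposite another gene record of the table. Tissue isoforms and relatives of complex IV are not shown. The 7 labelled genes with at least 45% overlap lie between 0.00815 and 51.6 CPM per kb, and the 69 others between 13.5 and 824.

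Genes that work with the members were read from lists, whose counts stand against 20.2% higher and 16.7% lower over all genes in EAE against Control, and 15.2% and 10.2% without the length trend. Of 35 chain genes outside the name rule 10 were higher and 2 lower in EAE against Control, with a median log2 fold change of 0.13; without the length trend 1 was higher and 2 lower, with a median of 0.01. The assembly factor Coa3 was 0.375 higher on the log2 scale (adjusted p = 0.000619) and Higd2a 0.36 (adjusted p = 0.00159), and neither passed without the length trend (adjusted p = 0.402 and 0.785). AA467197, the gene that was higher in both fits, known as Nmes1 and a relative of Ndufa4, rose most: it had 0.512, 1.39 and 1.38 CPM in EAE+EHP-101, 2.66, 2.37 and 2.21 CPM in EAE, and 0.493, 0.158 and 0.197 CPM in Control. Its EAE libraries lay above all others, with a log2 difference of 3.08 from Control (SE 0.42, adjusted p = 0.000316) and of -1.14 in EAE+EHP-101 against EAE (SE 0.34, adjusted p = 0.0938).

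Transcripts encoded in mitochondrial DNA did not go with the nuclear members. Of 12 tested, 1 was higher and 2 lower in EAE, with a median log2 fold change of -0.09; without the length trend 0 were higher and 4 lower, with a median of -0.37. ND2 and ND5, membrane subunits of complex I, were both 0.33 lower on the log2 scale (adjusted p = 0.014 each); ND2 had 5265, 5142 and 5756 CPM in EAE+EHP-101, 4544, 5698 and 5182 CPM in EAE, and 6633, 5993 and 6758 CPM in Control. ND3, another complex I subunit, was 2.24-fold higher (log2 1.16, SE 0.27, adjusted p = 0.00577; 0.755 and adjusted p = 0.0739 without the length trend), at 77, 59 and 63 counts in EAE+EHP-101, 93, 87 and 168 counts in EAE, and 57, 40 and 52 counts in Control. Poly(A) selection does not capture these transcripts evenly.

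Of 14 regulators of mitochondrial biogenesis 3 were lower in EAE and 1, Sirt3, was higher (log2 0.17, adjusted p = 0.0376; 0.03, adjusted p = 0.686, without the length trend). Ppargc1a, the coactivator PGC-1 alpha, had 57.8, 56.0 and 54.5 CPM in EAE+EHP-101, 54.0, 52.1 and 57.6 CPM in EAE, and 67.6, 78.2 and 72.9 CPM in Control. Its EAE+EHP-101 and EAE libraries overlapped and lay below every Control library, with a log2 difference of -0.42 in EAE against Control (SE 0.07, adjusted p = 0.000744) and 0.04 in EAE+EHP-101 against EAE (adjusted p = 0.82). Ppargc1b (-0.95) and the receptor Esrrg (-0.60) were lower too, and all 3 passed without the length trend. None of the 14 passed in EAE+EHP-101 against EAE by edgeR.

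Of 18 import genes 9 were higher in EAE and 0 lower, with a median log2 fold change of 0.245, against 2 higher, 0 lower and a median of 0.02 without the length trend. The 2 were Tomm6 and Timm13, a chaperone of the intermembrane space, which stood at 0.50 on the log2 scale (adjusted p = 0.000462) and at 0.31 without the length trend (adjusted p = 0.00348). Tomm6 and Tomm7, small parts of the outer membrane pore, were 0.395 and 0.36 higher (adjusted p = 0.000847 and 0.00322). Of 18 genes of the tricarboxylic acid cycle 2 were higher, Idh2 (0.49, adjusted p = 0.00111) and Suclg1 (0.195, adjusted p = 0.0255), and 0 lower; without the length trend Idh2 was higher and 2, Idh3a and Sucla2, were lower. Of 17 glycolysis genes 3 were higher and 0 lower. Hk2, an inducible hexokinase, had 6.845, 13.4 and 12.9 CPM in EAE+EHP-101, 23.98, 25.2 and 19.8 CPM in EAE, and 5.06, 5.57 and 5.86 CPM in Control, a log2 difference of 2.06 in EAE (SE 0.21, adjusted p = 6.43e-05). Pfkl, a phosphofructokinase, was 0.31 higher (adjusted p = 0.0032). With Ldha, which makes lactate (0.53, adjusted p = 0.000186), Hk2 was also lower in EAE+EHP-101 than in EAE, by -1.055 (adjusted p = 0.0106) and -0.30 for Ldha (adjusted p = 0.021). Apart from these 2, no gene of these 6 lists passed in EAE+EHP-101 against EAE by edgeR with counts as deposited; without the length trend Coa5, a complex IV assembly factor outside the name rule, was lower too (log2 -0.21, adjusted p = 0.0406).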

How the data were processed

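Poly(A) RNA of 9 mouse spinal cords, 3 per group, was sequenced as single reads of 50 bases from stranded libraries. The deposited values are whole-number counts per gene. Per the submitters' processing notes, the build was mm10 and the tools named were HISAT2 2.1.0, Trimmomatic 0.36, DESeq2 1.20.0 and featureCounts 1.6.1. No source used here gives the strand setting or the treatment of reads with several matches. The table also holds exon length per gene, which the length comparisons use.

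Identifiers were matched to RefSeq symbols (25275 of 27179; the others held 0.311% to 0.619% of a library's counts). From the deposited counts, edgeR 4.0.16 (R 4.3.3; filterByExpr, TMM factors, quasi-likelihood test, 1 model over 9 libraries, Benjamini-Hochberg over 16749 genes, adjusted p under 0.05) gave every adjusted p for EAE+EHP-101 against EAE, EAE against Control, and EAE+EHP-101 against Control. CPM are TMM-scaled. Fold changes are those of the fit. p-values measure the spread between mice of a group, 1 library each, at 30448507 to 32661741 counts a library. Library slopes were compared by an exact permutation test. The length trend was removed by an offset for each library, a lowess curve (span 0.3) of the gene's log2 deviation on log2 length. Shared windows and transcript lengths came from GENCODE M21, promoters from RefSeq GRCm38.p6. The fits were also run on simulated counts, with and without a length trend. That trend was straight and less steep than in the data, so the run cannot vouch for the fits at the slopes seen here. DESeq2 1.42.0, other scalings, no filter, 2-group fits, a replicate block and each library left out were alternatives.

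Named genes are, per role, up to 4 higher in EAE with the smallest p, those called in the other comparisons or without the length trend, complex II, the c subunit genes, the isoform pairs, the longest and shortest members, and up to 3 called genes per pathway list. Atp5b, Ndufs1, Sirt3, Itgad, Kmt5c and the genes with opposite-strand overlap were added after their values were seen. A gene that the rule names is not reported here. Members and lists were chosen with earlier results of these data known.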

Additional observations from a re-analysis of the deposited data

How the results depend on the processing

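Directions of the 3 library slopes held under every alternative run except that of EAE+EHP-101 against EAE, which was -0.0054 over members only (0.0402 over all genes). The slope difference of EAE and Control was -0.0852 with no filter and -0.1104 over members only, and that of EAE+EHP-101 and Control -0.065 with no filter; leaving out each library gave -0.1686 to -0.1461 for EAE against Control, 0.0247 to 0.0517 for EAE+EHP-101 against EAE and -0.1349 to -0.1059 for EAE+EHP-101 against Control. Members higher in EAE than in Control numbered 60 to 73 under other scalings, no filter or DESeq2, 49 in the 2-group fit, 8 without the length trend (8 with members left out of the trend, 6 with the replicate block and the length trend removed), and 31 to 67 with each library left out (3 to 9 without the trend). Members lower in EAE, 0 in the report, numbered 1 with DESeq2 size factors, the DESeq2 Wald test or the 2-group fit, 4 without the trend (4 with members left out of it, 3 with the replicate block too), and 0 to 1 with each library left out (1 to 9 without the trend). In EAE+EHP-101 against EAE no member was higher with any library left out (0 to 0, in both fits), and the 2 lower became 1 with the replicate block and the trend removed, and 0 to 2 with each library left out, in both fits. In EAE+EHP-101 against Control the higher members numbered 4 without the trend, 4 with members left out of it, 1 with the replicate block too, and 13 to 57 with each library left out (0 to 6 without the trend); the 1 lower member became 0 with library totals, the replicate block, the block without the trend, or the 2-group fit, and 0 to 1 with each library left out, in both fits. The labels give no pairing of mice by replicate number, and none was seen, though 3 libraries a group cannot exclude it. Same-numbered libraries deviated together at r -0.172 to 0.107 and other pairs at -0.147 to 0.223, and no library was closest to its own number. The replicate block gave 56 members higher and 0 lower in EAE against Control, 0 and 2 in EAE+EHP-101 against EAE, and 34 and 0 in EAE+EHP-101 against Control. Among named values that passed the test in the reported fit or in the alternative, 58 changed sign, all in fits without the length trend. Values that passed in neither, such as Atp5g2, changed sign too, also with a library left out. Log2 differences between EAE and Control turned to the following values without the trend, with members left out of the trend, and with the replicate block and the trend removed: Ndufs3 -0.031, -0.033 and -0.032, Sdhaf4 -0.023, -0.028 and -0.024, Uqcrh -0.011, -0.018 and -0.011, Cox19 -0.023, -0.027 and -0.024, Cox20 -0.141, -0.149 and -0.142, Cox6a1 -0.073, -0.08 and -0.073, Atp5o -0.052, -0.056 and -0.052, Cox5b -0.182, -0.189 and -0.183, Ndufaf2 -0.175 and -0.18 (without the block), Atp5g1 -0.059, -0.061 and -0.059, Atp5g3 -0.122, -0.126 and -0.122, Ndufa4 -0.071, -0.079 and -0.071, Cox6b1 -0.09, -0.098 and -0.09, and Atp5k -0.16, -0.162 and -0.157. Between EAE+EHP-101 and Control they turned, in the same order of fits, to Uqcrh -0.001 and -0.001 (without and with the block), Cox6a1 -0.028, -0.025 and -0.028, Atp5o -0.011, -0.009 and -0.01, Cox5b -0.019, -0.016 and -0.019, Atp5g3 -0.046, -0.044 and -0.046, and Cox6b1 -0.058, -0.054 and -0.058. Leaving out each library under the length-trend fit was chosen after seeing the data. Counts of 24 to 49 (Cox7a2) or 9 to 37 (Cox6a2) a library limit what can be said of the least abundant members.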
